A study of Homo sapiens with 2 samples.

Results

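The trefoil factor genes TFF3, TFF2 and TFF1 stand next to each other on the long arm of human chromosome 21, and oestrogen receptor α (ERα) binding around them was read from a list of ERα peaks in T47D cells. The region was fixed by position as all peaks with a centre between 43600000 and 43950000 on chromosome 21 of the hg19 build, a window of 350 kb. It held 8 of the 12688 listed peaks, and the other 252 peaks of chromosome 21 served as the nearest comparison. T47D is an established ERα-positive human breast cancer line. The study mapped ERα sites with 1 library of DNA recovered with the ERα antibody H-20 and 1 input library, which is DNA from the same kind of cells with no antibody step. The cells behind both libraries spent 48 h without steroids in the medium before 45 min with 10 nM 17β-estradiol, the main natural oestrogen. No untreated library was analysed here, so the values describe binding after estradiol and not a response to it. With 1 library of each kind there was no replicate error and no test, and every comparison below is a description of this list.

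Trefoil factors are small secreted proteins with a compact, disulphide-bonded trefoil domain. They are released with mucins on to epithelial surfaces, which they protect and help to repair. TFF1, also called pS2, was found as an oestrogen-induced transcript in breast cancer cells and is a standard readout of ERα activity. Its promoter is known to hold an imperfect oestrogen response element, the palindrome that ERα dimers bind, and ERα binding further upstream is known from MCF-7 cells, another oestrogen-responsive breast cancer line. TFF2, the spasmolytic polypeptide of gastric mucous cells, carries a pair of trefoil domains, and TFF3 is the intestinal trefoil factor of goblet cells, also made by many ERα-positive breast tumours.

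ERα binding was placed unevenly over the 3 genes. The peak of highest score lay upstream of TFF1, another peak of high score covered the TFF1 start itself, and the starts of TFF2 and TFF3 had no peak within 1 kb. All 3 genes lie on the minus strand, so upstream means toward higher coordinates. The starts were 43786644 for TFF1, 43771208 for TFF2 and 43735500 for TFF3. They were taken as given and not checked against an hg19 annotation, and that of TFF3 is a round number, so distances may be off by the error of the starts. A peak is called promoter-proximal when its centre lies within 1 kb of a start and distal otherwise. By this measure 1 of the 8 peaks was promoter-proximal and 7 were distal, and 1 of the 3 starts had a promoter-proximal peak. For scale, 0.797% of all bases of chromosomes 1 to 22 and X lie within 1 kb of a peak centre. Such a share of bases is not a share of gene starts, for which no hg19 annotation was used.

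**Figure D1:**
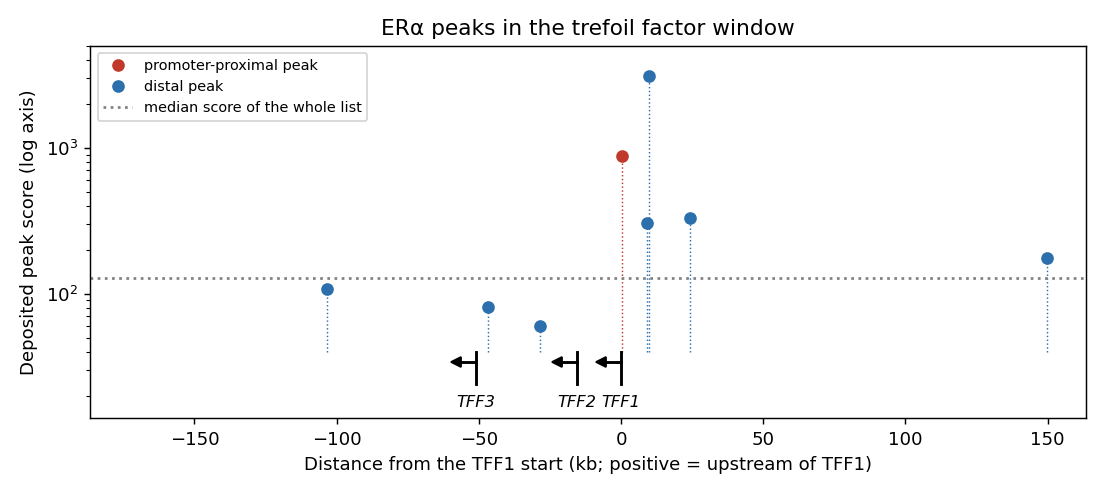
Deposited score of each of the 8 ERα peaks (log axis) against the distance of its centre from the TFF1 start in kb, with positive distances upstream of TFF1. Black ticks with arrows mark the starts and direction of the 3 genes, and dotted stems only mark positions. The 5 peaks at or above the dotted line, the median score of 128.26 of the whole list, are those at and upstream of TFF1.

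TFF1 had a promoter-proximal peak that covered its start. The peak ran from 43786400 to 43787274, a width of 875 bp, and its score was 883.13. It reached 630 bp upstream and 244 bp downstream of the TFF1 start, and its centre lay 192 bp upstream. Binding was thus listed over the stretch just upstream of the gene, although the list gives no summit within the peak. The score is the value that the authors' peak caller gave to each peak, its scale is not stated, and it is used only to rank peaks within this list. The TFF1 promoter peak ranked 1516 in the list, above 88.1% of all peaks, and 31 among the 260 peaks of chromosome 21. For background, 0.238% of the bases of chromosomes 1 to 22 and X are covered by a peak.

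Upstream of TFF1, 2 adjoining distal peaks lay close together. The farther one, from 43796230 to 43797029 with a width of 800 bp, had a score of 3100.00, the highest of the window. Its centre was 9985 bp upstream of the TFF1 start. The nearer one, from 43795424 to 43796090 with a width of 667 bp, had a score of 304.28 and a centre 9112 bp upstream. Only 139 bp separated the 2 peaks, so the list does not show whether they are separate sites or 1 enriched region that the caller divided. The score of 3100.00 was shared by 235 peaks of the list while 34 scored above it. By deposited value the distal peak therefore ranked between 35 and 269. Why so many peaks share this 1 value is not stated and was not tested, so their order against those 34 is uncertain. A score of 3100 or more was held by 2.12% of all peaks and by 9 peaks of chromosome 21. The distal peak ranked above the promoter peak of the same gene, which lay 9.8 kb away between centres. Bases within 10 kb of a peak scoring 3100 or more make up 0.172% of chromosomes 1 to 22 and X, and the TFF1 start is among them by a margin of 15 bp. With that start moved by 100 bp away from the peak, it was not.

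**Figure D2:**
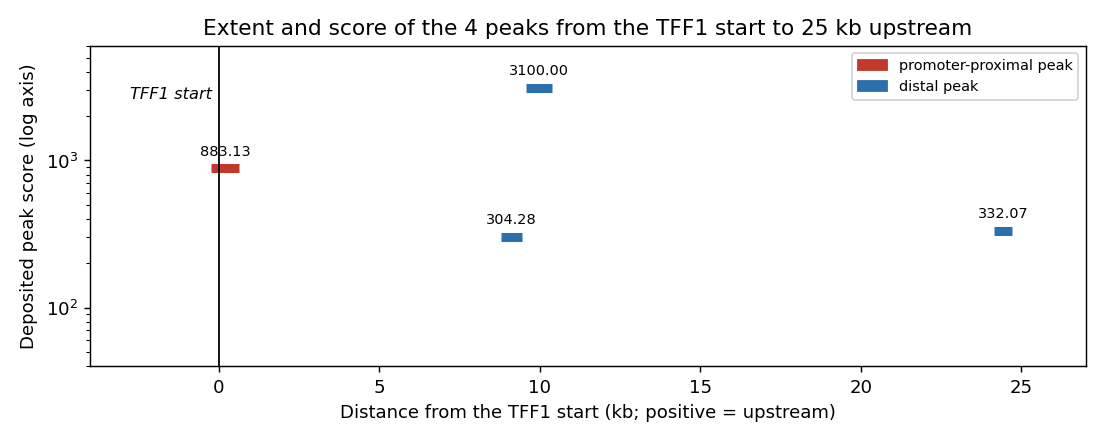
Extent (horizontal bars, in kb from the TFF1 start, positive upstream) and deposited score (log axis, printed above each bar) of the 4 peaks from the TFF1 start to 24.4 kb upstream, without the peak 149.8 kb upstream. The promoter-proximal peak with a score of 883.13 crosses the start, and the peak with a score of 3100.00 stands 9985 bp upstream beside a weaker peak 139 bp away.

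One more distal peak followed farther upstream of TFF1. It ran from 43810785 to 43811358, was 574 bp wide, scored 332.07 and had its centre 24.4 kb upstream of the start. It stood above 74.1% of the list, close to the 72.3% of the peak scoring 304.28. In the gene order of the RefSeq table for GRCh38.p14, from which only names and order were taken, TMPRSS3, a membrane serine protease gene linked to hearing, follows TFF1 on this side. The starts and extents of other genes were not measured against the peaks, so a peak upstream of TFF1 may lie inside another gene. Nearness to TFF1 is nearness among the 3 trefoil factor starts and does not name a target.

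The fifth peak nearest to TFF1 was remote. It ran from 43936275 to 43936648, was 374 bp wide, scored 176.67 and lay 149.8 kb upstream of the TFF1 start. A stretch of 124.9 kb without a listed peak separated it from the peak before it. UBASH3A, a suppressor of T cell receptor signalling, and RSPH1, a radial spoke protein of cilia, come after TMPRSS3 in the gene order. That order holds no positions, so it does not show which gene this peak lies in or next to. The peak is given here only because the window includes it.

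The 4 peaks from the TFF1 promoter upstream spanned 24.2 kb between their outermost centres. Of all runs of 4 neighbouring peaks on chromosomes 1 to 22 and X, 7.49% spanned no more than this, and the median run spanned 332.8 kb. This run was singled out after its values were seen. The first 3 of its peaks formed 1 region of 10.6 kb, from 43786400 to 43797029, when peaks whose edges lay within 10 kb were joined, and 7.75% of all regions joined in this way held 3 or more peaks.

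TFF2 had no promoter-proximal peak. The nearest centre on the downstream side was that of the peak from 43758066 to 43758504, 12.9 kb from the TFF2 start. That peak was 439 bp wide and its score of 60.25, the lowest of the window, was above 15.6% of the list. On the upstream side the nearest centre was that of the TFF1 promoter peak, 15.6 kb away. The 15.4 kb between the starts of TFF2 and TFF1 held 0 peak centres. Within 10 kb of the TFF2 start there were 0 centres, against 3 within 10 kb of the TFF1 start, or 2 if that start is moved by 100 bp away from them. Bases within 10 kb of a peak centre make up 6.36% of chromosomes 1 to 22 and X.

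TFF3 had no promoter-proximal peak either, and its nearest peak was weak. The peak from 43739634 to 43740022 was 389 bp wide, scored 81.36 and was centred 4.3 kb upstream of the TFF3 start. Its score was above 32.2% of the list. Bases within 5 kb of a peak centre make up 3.47% of chromosomes 1 to 22 and X, and the TFF3 start falls among them by this 1 peak. On the downstream side the nearest centre was 52.4 kb away, in the peak from 43682676 to 43683538, which was 863 bp wide and scored 108.46. ABCG1, a cholesterol efflux transporter, is the next protein-coding gene below TFF3 in the gene order, followed by UMODL1 and ZBTB21. The strong peak upstream of TFF1 lay 61.1 kb from the TFF3 start and 25.4 kb from the TFF2 start, on the upstream side of both.

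The peaks below the TFF1 start and those at or above it did not overlap in score. The 3 peaks below it scored 60.25, 81.36 and 108.46, all under the median of the list, and the 5 peaks with centres above it scored 176.67 to 3100.00, all over that median. This division was made after the scores were seen and was not tested. By definition 50% of all listed peaks are at or above the median. Assigned to the nearest of the 3 starts, 5 peaks went to TFF1, 1 to TFF2 and 2 to TFF3. The stretches nearest to each start differ in length, so these counts are not densities. The window runs 163.4 kb above the TFF1 start and 135.5 kb below the TFF3 start. Between the starts lie only 35.7 kb from TFF3 to TFF2 and 15.4 kb from TFF2 to TFF1. Of the 5 at TFF1, 1 was promoter-proximal and 4 were distal, whereas all 3 at the other starts were distal. The list names only regions that passed the caller's threshold, so a start without a peak is not shown to lack ERα, and the read depth is unknown.

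As a group, the 8 peaks spanned most of the range of scores. Their median score was 240.47 (quartiles 101.69 and 469.83), against 148.52 for the other 252 peaks of chromosome 21 and 128.26 for the whole list. In the window, 5 of 8 peaks (62.5%, Wilson 95% interval 30.6 to 86.3%) were at or above the list's median, where 50% of all peaks lie by definition. On the rest of chromosome 21 the share was 54.8% (48.6 to 60.8%). In the top 25% of scores, from 347.15 upward, were 2 of 8 window peaks against 25% of the list. The top 10%, from 1068.55 upward, held 1 of 8 window peaks against 10% of the list. These intervals cover counting error only, treat peaks as independent, and at these 3 thresholds they include the share of the whole list. At a score of 3100 or more stood 1 of 8 window peaks (12.5%, 2.24 to 47.1%), against 2.12% of the list (1.88 to 2.39%). The list's share lies just below the window's interval, but the intervals overlap, and 1 peak of 8 does not show an excess. On the rest of chromosome 21 the share was 8 of 252 (3.17%, 1.62 to 6.14%), which the window's interval includes. The window's share rests on the single distal TFF1 peak. Another peak centre within 10 kb was found for 3 of the 8 peaks (37.5%), all at TFF1, against 41.3% of the list.

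Both of the window's highest-scoring peaks were among its 3 widest. The TFF1 promoter peak, at 875 bp, was the widest of the 8 and wider than 90.7% of the list. Against this order, the peak scoring 108.46 was nearly as wide, 863 bp, although 55.9% of the listed peaks scored higher. The peak scoring 3100.00 was 800 bp wide, and 19.7% of the 269 peaks with a score of 3100 or more were narrower than it. The median width was 620.5 bp in the window, 496.5 bp on the rest of chromosome 21 and 505 bp in the whole list.

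**Figure D3:**
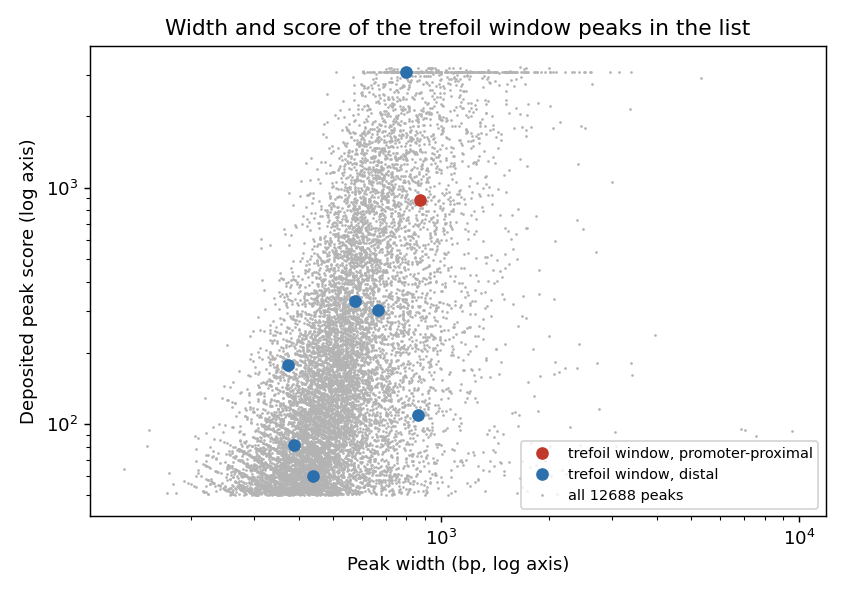
Width in bp and deposited score of each peak, both on log axes, with the 8 trefoil factor window peaks as large points (red for the promoter-proximal peak, blue for the distal ones) over all 12688 peaks in grey. The window peaks run from 374 to 875 bp and from 60.25 to the row of peaks at 3100.

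In number, the window was denser than most of the genome. Its 8 peaks correspond to 22.9 per Mb, against 5.4 per Mb over chromosome 21, which includes the window, and 4.17 per Mb over chromosomes 1 to 22 and X. Of 8663 windows of 350 kb laid end to end over those chromosomes, 294 (3.39%, Wilson 95% interval 3.03 to 3.8%) held at least 8 peaks and 4362 held none. The share as full as the trefoil factor window was 1.86% after peaks within 10 kb were merged and 6.84% among windows with at least 1 peak. Both lie outside the interval, which treats windows as independent and does not cover such choices. On chromosome 21 the share was 9 of 137 windows (6.57%), and the fullest of them held 14 peaks. Windows with a peak scoring 3100 or more made up 2.72% of all windows, and those with both features 1.33%. Among the 294 windows with at least 8 peaks, 39.1% held such a peak. The trefoil factor window was chosen around its genes and the others by their position from the chromosome end, so the shares describe where its count stands and are no test. No correction for the copy number of chromosome 21 in T47D cells was added here, and how far the input library corrected for it was not tested.

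**Figure D4:**
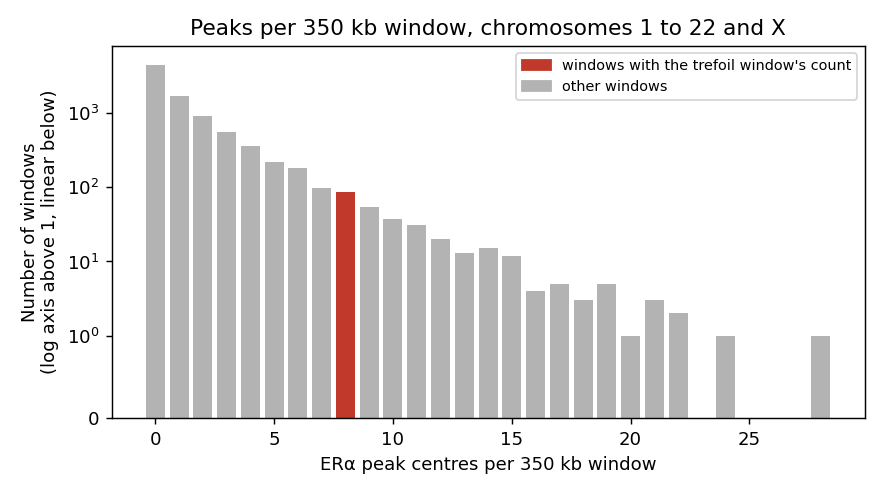
Number of 350 kb windows (log axis above 1, linear below) by the number of ERα peak centres they hold, on chromosomes 1 to 22 and X. The red bar marks windows with 8 peaks, the count of the trefoil factor window, and 294 of 8663 windows hold 8 or more.

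The limits of the window cut no group of peaks. The nearest peak below it, from 43540203 to 43540524 with a score of 95.34, was centred 59.6 kb outside the lower limit, and 142 kb without a peak separated it from the first window peak. The nearest peak above it, from 44232070 to 44232558 with a score of 140.45, was centred 282.3 kb outside the upper limit. The peaks just inside scored 108.46 and 176.67. In all, the 8 peaks covered 4981 bp, or 1.42% of the window.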

How the data were processed

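The data are 1 deposited list of ERα peaks over input in T47D cells. The score of each peak was deposited as the authors' peak caller gave it, on a scale that no source used here gives. Starts and ends are deposited base positions, and the starts, which count from 0, were raised by 1 for printing. Peak names carry the MACS prefix, per the file. HOMER, Bowtie 0.12.9, CASAVA 1.8 and the hg19 build stand in the submitters' processing notes without a role. Read depth, duplicate handling and the caller's threshold are not given, so no detection limit was computed, and 1 library of each kind allows no p-value. Scores in the list begin at 50.00. The 3 gene starts came with the definition of the region. Peaks were placed by centre, ranked by score, assigned to the nearest start and counted in 350 kb windows, with hg19 lengths from GenomeInfoDb 1.38.1 and incomplete last windows left out. Wilson 95% intervals cover counting error only. Functions were tested on simulated data. The members and the lists were chosen with earlier results of these data known. The rule for naming gave the 3 genes, 3 protein-coding neighbours on each side by name, and all 8 peaks. Computation used SciPy 1.17.1, pandas 2.3.3 and NumPy 2.4.6 under Python 3.11.15, with figures from matplotlib 3.10.9.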

Additional observations from a re-analysis of the deposited data

How the results depend on the processing

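The promoter-proximal count stayed at 1 for TFF1 and 0 for TFF2 under all 5 alternatives each, and at 0 for TFF3 except when the distance was widened to 5 kb, which gave 1. The window kept 6 to 8 peaks when peaks were merged, when overlap replaced the centre and when its limits moved by 50 kb. It held 5 peaks at or above the median score and 2 in the top 25%, by construction of these subsets. The share of windows at least as full was 3.28% with shifted tiling and 3.51% for peaks at or above the median score. It was 1.86% after merging within 10 kb, and 6.84% among windows with a peak, by construction. Within 50 kb of a start, TFF3 had 1 nearest peak instead of 2 and TFF1 had 4 instead of 5, while TFF2 kept 1. The window's median score was above 67.4% of the list, above 63.5% of the rest of chromosome 21, and above 59.1% after merging within 500 bp, where 7 peaks remain in the window. Moving the TFF3 start by 300 bp changed no assignment. Moving each start by 100 bp, an alternative added after seeing the data, took TFF1 from 3 to 2 centres within 10 kb and from 1 to 0 of those scoring 3100 or more in 1 of the 2 directions. No paired analysis was possible because ChIP and input had a single library apiece. The planned motif search in the 3 promoters and its alternative were not run. How weak a site could be and still be listed depends on the read depth, which is unknown.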

Other observations

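Strong peaks had close neighbours, like the pair upstream of TFF1, in a larger share than weaker peaks did. These counts were chosen after the values at TFF1 were seen and were not tested. Of the 269 peaks with a score of 3100 or more, 84 (31.2%) had another peak whose edge lay within 500 bp, as the distal TFF1 peak does, against 9.81% of the 12378 weaker peaks on chromosomes 1 to 22 and X. Another peak centre within 10 kb was found for 210 of the 269 (78.1%), against 40.6% of the weaker peaks. A neighbour in the top 25% of scores, as the TFF1 promoter peak is, was found within 10 kb for 127 of the 269 (47.2%), against 19.6% of the weaker peaks. Of the 720 regions of 3 or more peaks joined within 10 kb, 148 (20.6%) held a peak scoring 3100 or more, against 109 of the 8572 regions of 1 or 2 peaks (1.27%). A region with more peaks has more chances to hold one, and this was not corrected for.

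The TFF1 promoter peak was wide for its score. Among the 637 peaks on chromosomes 1 to 22 and X with scores from 700 to 1100, a range set after its score was seen, the median width was 671 bp (quartiles 578 and 796 bp), and 82.1% were narrower than its 875 bp.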
